A study of Mus musculus with 12 samples.

Results

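Expression of 10 genes that mark tendon, the joint interzone and the surface of articular cartilage was followed in mouse cartilage progenitor pellets that passed from chondrogenic to osteogenic medium. The genes were taken by symbol as a fixed list of tendon, joint and superficial cartilage factors (Scx, Mkx, Tnmd, Gdf5, Erg, Osr1, Osr2, Barx1, Barx2 and Prg4). All 10 were found among the 28244 genes listed, and all 10 passed the filter on low values. The cells came from C57/BL6 pups aged 5 or 6 days, whose femoral and tibial heads and condyles were digested with collagenase, and all groups share this source. Pellets were kept for 7 days in chondrogenic medium and then moved to osteogenic medium. The D7 group was taken at the end of the chondrogenic stage, and the D8, D10 and D28 groups after 1, 3 and 21 days of osteogenic medium. Each group holds 3 RNA-seq libraries, 12 in all. No pellet was kept in chondrogenic medium beyond D7 among these libraries, so time in culture and the change of medium cannot be told apart. The labels do not say whether replicates came from separate animals or cultures, and p-values then measure only the spread between these samples, which may be technical.

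Joints form where a strip of future cartilage, the interzone, turns off the chondrocyte program and expresses Gdf5, a bone morphogenetic protein family ligand. Its descendants give articular cartilage, whose surface cells secrete lubricin, the product of Prg4, as well as ligaments and synovial lining. Tendon progenitors express the helix-loop-helix factor Scx (scleraxis), later joined by the homeobox factor Mkx (mohawk), and mature tendon cells display the membrane glycoprotein tenomodulin, encoded by Tnmd. Epiphyseal heads and condyles contain articular as well as growth plate cartilage, and ligament and tendon insert close by.

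Levels are given as deposited, as the log2 of an equalized count plus 1. Equalized values had the same maximum in every library, a log2 value of 20.92, while the number of genes at 0 ran from 11055 to 12383. They give a gene's place within its library and not its amount per cell. A gene was called when it differed by at least 1 on the log2 scale, which is a fold change of 2, with an adjusted p under 0.05 in limma over the 17674 genes tested. Comparisons share libraries with each other and are not independent. In pellets, fewer cells of a type and less RNA per cell cannot be told apart. The libraries' relative depth, estimated from low values, ran from 0.730 in D10 replicate 1 to 1.31 in D28 replicate 1. The cartilage collagen Col2a1 had a mean log2 value of 20.92 at D7 and D28 and 19.87 at D10, where fibronectin, Fn1, stood at 20.92.

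In the GENCODE annotation of GRCm38, which need not be the build behind the deposited counts, Scx spans 76457452 to 76459458 on the plus strand of chromosome 15 and Osr2 spans 35296098 to 35303305 on the same strand. Tnmd is at 133850980 to 133865577 on chromosome X, Osr1 at 9570116 to 9581500 on chromosome 12 and Barx1 at 48662998 to 48666507 on chromosome 13, each on the plus strand. On the minus strand lie Prg4 (chromosome 1, 150449412 to 150466165), Gdf5 (chromosome 2, 155941023 to 155945367), Barx2 (chromosome 9, 31846044 to 31913462) and Erg (chromosome 16, 95359169 to 95586593). All are protein coding, and reads were counted over whole genes, so values do not separate exons or transcripts.

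Tnmd was called in 5 of 6 comparisons and Erg was the one gene called at D8 against D7, and the sequence around their annotated starts is shown for these 2. RefSeq windows of 300 bases (250 before and 50 from the start, GRCm38.p6) were held for 3 of the 10 genes, namely Tnmd, Barx1 and Erg, the last with 3 starts. Capitals mark the ETS core GGAA or its reverse complement TTCC, the letters that factors of the ETS family, to which Erg belongs, are known to read. The Tnmd window is chrX:133850758-133851057 on the plus strand, and the Erg window, around its most distal start, is chr16:95586544-95586843 on the minus strand.
Tnmd: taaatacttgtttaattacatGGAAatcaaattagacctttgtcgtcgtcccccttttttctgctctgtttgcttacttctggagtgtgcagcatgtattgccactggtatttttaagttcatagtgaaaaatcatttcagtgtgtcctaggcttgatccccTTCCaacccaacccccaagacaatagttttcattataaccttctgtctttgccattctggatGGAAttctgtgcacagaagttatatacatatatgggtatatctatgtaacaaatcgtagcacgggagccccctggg
Erg: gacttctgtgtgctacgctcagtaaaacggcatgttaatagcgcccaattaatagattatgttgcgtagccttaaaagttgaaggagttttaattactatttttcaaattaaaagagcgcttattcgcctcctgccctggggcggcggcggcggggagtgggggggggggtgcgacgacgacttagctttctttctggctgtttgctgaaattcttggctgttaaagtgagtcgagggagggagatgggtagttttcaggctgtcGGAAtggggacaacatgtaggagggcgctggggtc
The Tnmd window held 3 ETS cores and this Erg window 1, while the other 2 Erg windows held 4 and 2. Such cores are common, being present in 96.0% of the 32851 windows, and a match describes letters only. The E-box CANNTG, which helix-loop-helix factors such as Scx are known to read, was searched on both strands and had 0 matches in the Tnmd window, while 72.3% of all windows hold one. The 3 Erg windows, with 1, 4 and 2 ETS cores, held 0, 0 and 2 E-boxes in the same order. The Barx1 window held 0 E-boxes and 0 ETS cores.

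**Figure D1:**
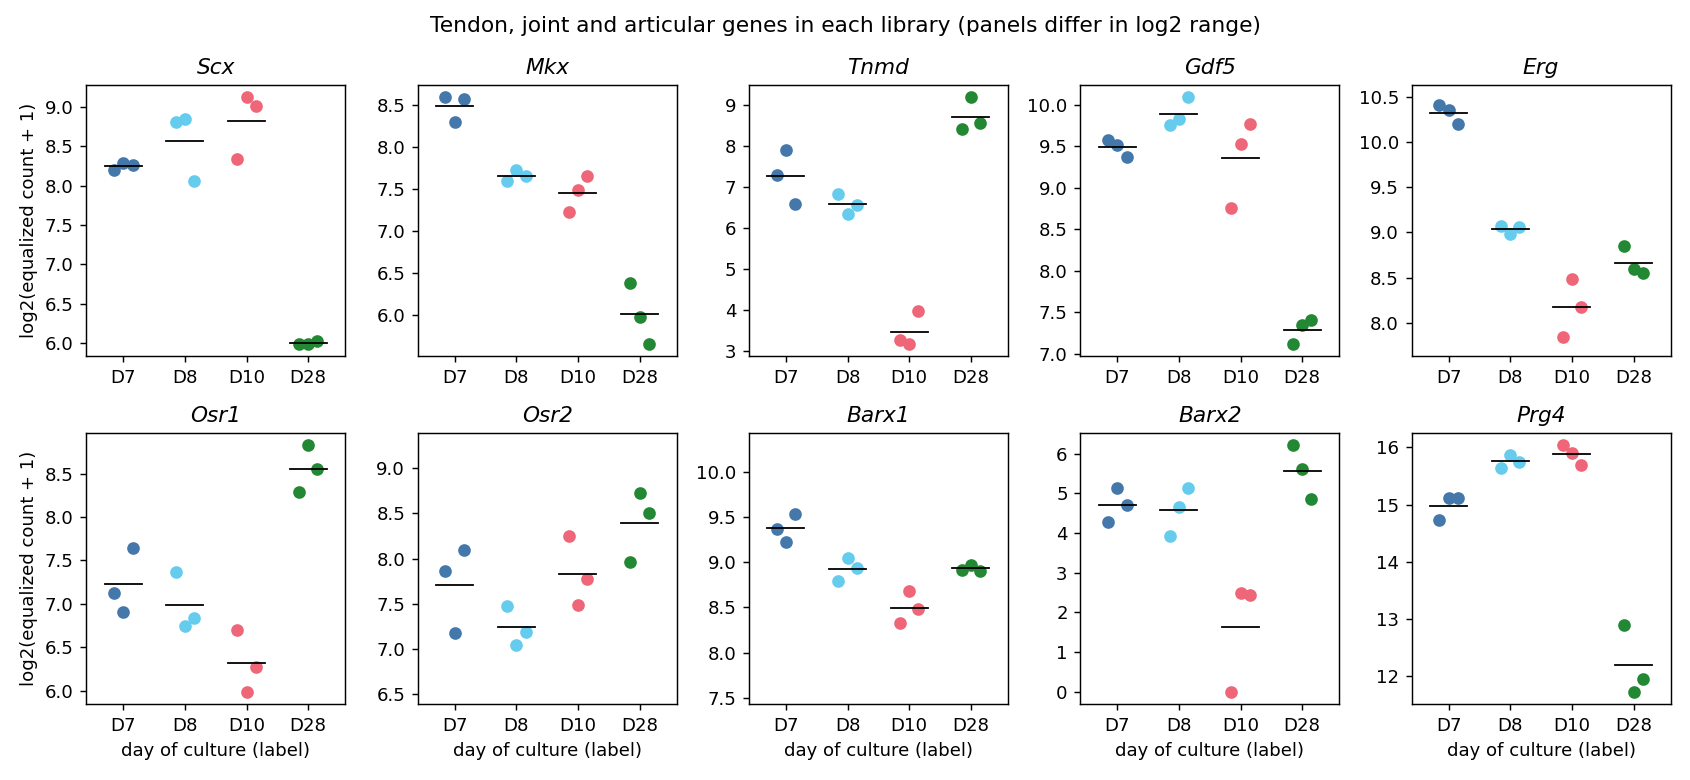
Level of each of the 10 genes in every library, as log2(equalized count + 1), by time point. Points are the 3 libraries of a time point and black bars their means, and each panel has its own range. Tnmd and Barx2 dip at D10 and are highest at D28, while Scx, Mkx, Gdf5 and Prg4 are lowest at D28.

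Among the tendon factors, Scx was held through the first osteogenic days and was much lower at the end. At D7 its log2 values were 8.20, 8.29 and 8.27. They were 8.81, 8.85 and 8.06 at D8 and 8.34, 9.13 and 9.02 at D10. At D28 the libraries lay close together at 5.99, 5.99 and 6.02, below every earlier library. Scx fell 7.11-fold from D10 to D28 (log2 difference -2.83 ± 0.22 SE, limma, adjusted p = 4.98e-08, n = 3 per group) and stood 4.77-fold lower at D28 than at D7 (limma, adjusted p = 1.20e-06). The D10 level was 1.49-fold above D7, with every D10 library above every D7 library, and did not reach the fold threshold (limma, adjusted p = 0.0489). In the order of means, D10, D8, D7 and D28, the first and second did not differ beyond their spread (limma, adjusted p = 0.424), nor did D8 and D7 (limma, adjusted p = 0.349). Scx lies inside Bop1 on the opposite strand, with 0 shared exonic bases. Bop1 moved little, from a mean log2 value of 9.84 at D7 to 10.10 at D10 and 9.49 at D28.

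Mkx, a gene of chromosome 18 that acts in tendon collagen fibril growth, had its means in descending order from D7 to D28. Its log2 values were 8.59, 8.29 and 8.57 at D7 and 7.59, 7.72 and 7.65 at D8. They were 7.22, 7.48 and 7.65 at D10 and 6.38, 5.97 and 5.65 at D28. All 3 D28 libraries lay below all others, and all 3 D7 libraries above all others. From D7 to D28 Mkx fell 5.57-fold (log2 difference -2.48 ± 0.20 SE, limma, adjusted p = 1.41e-07), and 2.73-fold from D10 to D28 (limma, adjusted p = 1.70e-05). The D8 level was 1.78-fold below D7 (limma, adjusted p = 0.00760), short of the fold threshold. D10 against D7 was called at a log2 difference of -1.03 (limma, adjusted p = 0.000638), and it missed the fold threshold without D7 replicate 1 (-0.98), without D7 replicate 3 (-0.99) or without D10 replicate 1 (-0.91). D8 and D10 did not differ beyond their spread (limma, adjusted p = 0.495). Mkx shares 201 exonic bases with AC148004.2 on the same strand, a gene not analysed here.

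Tnmd, the tendon product downstream of these factors and also known from adipose tissue, took a different course. At D7 its log2 values were 7.30, 7.91 and 6.59, and at D8 6.82, 6.35 and 6.56. At D10 they were 3.26, 3.17 and 3.97, which correspond to 4, 5 and 10 reads, far under every other library. At D28 they were 8.40, 9.18 and 8.55, above every other library. Tnmd fell 13.9-fold from D7 to D10 (log2 difference -3.80 ± 0.33 SE, limma, adjusted p = 3.07e-07), and 8.64-fold from D8 to D10 (limma, adjusted p = 1.24e-05). It then rose 37.9-fold to D28 (log2 difference 5.24, 95% interval 4.54 to 5.95, limma, adjusted p = 4.10e-09), ending 2.73-fold above D7 (limma, adjusted p = 0.00263). The D8 and D7 groups overlapped and did not pass (limma, adjusted p = 0.158). Without D7 replicate 3, the lowest D7 library, D8 was called lower at a log2 difference of -1.03.

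The 3 tendon genes therefore did not keep a common ratio. Within libraries, the log2 value of Scx exceeded that of Tnmd by 0.99 ± 0.65 (SD, n = 3) at the end of the chondrogenic stage, by 1.99 ± 0.50 a day later and by 5.36 ± 0.51 at D10. At D28 the difference was -2.71 ± 0.42, with Scx below Tnmd in 3 of 3 libraries. Scx and Mkx stood near each other at D7 (-0.23 ± 0.21) and at D28 (0.00 ± 0.38), and apart at D10 (1.38 ± 0.26). These differences compare the same genes over time and are not levels per length.

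**Figure D2:**
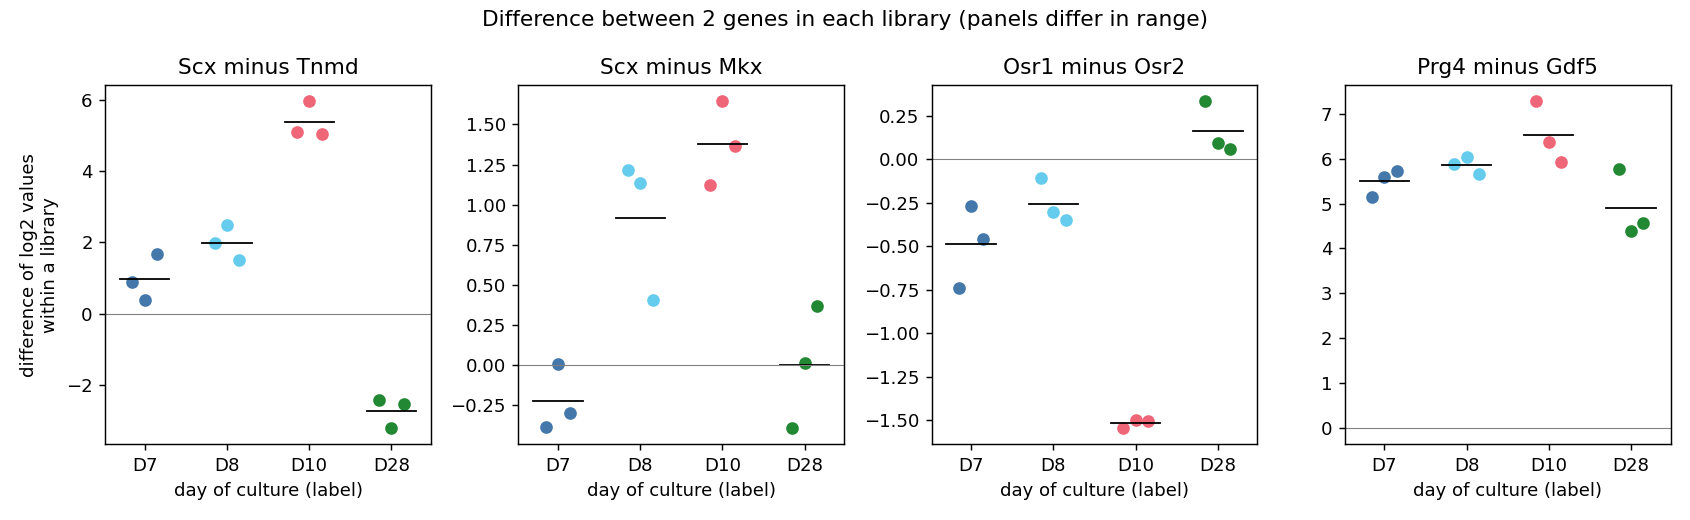
Difference of the log2 values of 2 genes within each library, by time point, for Scx and Tnmd, Scx and Mkx, Osr1 and Osr2, and Prg4 and Gdf5. Points are libraries and bars means. The Scx minus Tnmd difference is 5.36 at D10 and -2.71 at D28, and Osr1 minus Osr2 is -1.51 at D10 and between -0.49 and 0.16 at the other time points.

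Of the interzone genes, the ligand Gdf5 resembled Scx. Its log2 values were 9.58, 9.51 and 9.37 at D7, 9.75, 9.83 and 10.09 at D8, and 8.76, 9.53 and 9.77 at D10. At D28 they were 7.12, 7.35 and 7.40, below all other libraries. Gdf5 fell 4.17-fold between D10 and D28 (log2 difference -2.06 ± 0.20 SE, limma, adjusted p = 4.87e-07) and was 4.59-fold lower at D28 than at D7 (limma, adjusted p = 5.28e-07). In the order D8, D7, D10, D28, the first and second did not pass (limma, adjusted p = 0.176), and neither did D7 and D10 (limma, adjusted p = 0.622). The sign of the D10 and D7 difference, -0.14 on the log2 scale, turned to 0.16 without D10 replicate 1. The 3' part of Gdf5 shares 936 exonic bases with Gm15557 on the opposite strand, a gene not analysed here.

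Erg, an ETS factor of the interzone and of articular chondrocytes that is also a factor of endothelial cells, was the single gene of the 10 called after 1 day of osteogenic medium. Its log2 values were 10.41, 10.36 and 10.20 at D7 and 9.07, 8.99 and 9.06 at D8. They were 7.85, 8.49 and 8.18 at D10 and 8.85, 8.60 and 8.55 at D28. No D7 library overlapped with a later one. Erg fell 2.44-fold from D7 to D8 (log2 difference -1.28 ± 0.15 SE, limma, adjusted p = 2.67e-05) and 4.45-fold from D7 to D10 (limma, adjusted p = 3.28e-08). At D28 it was 3.16-fold below D7 (limma, adjusted p = 4.49e-07). The D10 level was 1.83-fold below D8, under the fold threshold with all libraries and past it without D10 replicate 2 (-1.03). D28 was 1.41-fold above D10 (limma, adjusted p = 0.0106) and thus not called, and D8 and D28, neighbours in the order D7, D8, D28, D10, did not pass (limma, adjusted p = 0.0554).

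Because Erg also marks endothelium, 10 endothelial genes were set beside it. Their summed equalized counts were 63.8 to 85.8 at D7, 290 to 499 at D8, 413 to 546 at D10 and 22.8 to 64.5 at D28. Without Vwf the sums over the other 9 were 31.4 to 54.6 at D7, 82.3 to 295 at D8, 29.9 to 131 at D10 and 20.8 to 44.0 at D28. Erg stood at 1175 to 1363 equalized counts at D7, 506 to 537 at D8, 229 to 358 at D10 and 375 to 460 at D28. The part of endothelial RNA in the Erg values was not tested. Of the 9 endothelial genes tested, 4 rose and 0 fell in D8 against D7, beside 3.23% and 3.81% of all genes. In D10 against D7, 2 rose and 0 fell, beside 8.50% and 10.4%. In D28 against D7, 0 rose and 2 fell, beside 8.63% and 8.66%. In D28 against D8, 0 rose and 5 fell, beside 10.0% and 9.70%. Vwf, which encodes von Willebrand factor, rose by 3.72 on the log2 scale in D10 against D7 (limma, adjusted p = 3.78e-05) and fell by 1.57 in D28 against D7 (limma, adjusted p = 0.0268). The other gene that rose to D10 was Kdr, the VEGF receptor, which lies under the level set for naming genes and was named after its value was seen. Kdr and Robo4 had at most 3 reads in every D7 library, Cdh5, Tie1 and Robo4 in every D10 library, and Cdh5, Esam and Robo4 had at most 3 in every D28 library. Fli1, the closest ETS relative of Erg, went from 6.85 at D7 to 6.57 at D10 and fell by 1.88 on the log2 scale from D7 to D28 (limma, adjusted p = 9.34e-06).

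The odd-skipped zinc finger factors Osr1 and Osr2, which act in joint formation and in connective tissue, were both highest at D28. Osr1 had log2 values of 7.12, 6.90 and 7.64 at D7, and 7.37, 6.74 and 6.84 at D8. They were 6.70, 5.98 and 6.28 at D10 and 8.29, 8.83 and 8.56 at D28. The D10 libraries lay below and the D28 libraries above all others. Osr1 rose 4.72-fold from D10 to D28 (log2 difference 2.24 ± 0.25 SE, limma, adjusted p = 2.12e-06) and was 2.52-fold above D7 at D28 (limma, adjusted p = 0.000564). D10 was 1.87-fold below D7 (limma, adjusted p = 0.00868), which is under the fold threshold. That difference passed it without D7 replicate 2 (-1.06) or without D10 replicate 1 (-1.09). D7 and D8 did not differ beyond their spread (limma, adjusted p = 0.556), and D8 and D10 did not pass (limma, adjusted p = 0.0585).

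Osr2 moved less, with log2 values of 7.86, 7.17 and 8.10 at D7 and 7.48, 7.05 and 7.19 at D8. They were 8.24, 7.48 and 7.78 at D10 and 7.96, 8.73 and 8.50 at D28. The D28 libraries overlapped with those of D7 and D10 but not with those of D8. D28 against D8 was called at a 2.23-fold rise (log2 difference 1.16 ± 0.26 SE, limma, adjusted p = 0.00211), and it missed the fold threshold without D28 replicate 2 (0.99). D28 was 1.61-fold above D7 (limma, adjusted p = 0.0502). None of the neighbours in the order D28, D10, D7, D8 passed, with limma adjusted p of 0.0836, 0.740 and 0.225. The difference Osr1 minus Osr2 was near the same value in the 3 D10 libraries, -1.54, -1.50 and -1.50. It was -0.49 ± 0.24 at D7, -0.25 ± 0.13 at D8 and 0.16 ± 0.15 at D28. These are differences of values not corrected for length, read over time only.

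The Bar family homeobox factors differed in level and in movement. Barx1, expressed at developing joints and in facial mesenchyme, was called in 0 of 6 comparisons, alone among the 10 genes. Its libraries read 9.37, 9.23 and 9.53 on the log2 scale at D7, 8.79, 9.04 and 8.94 at D8, 8.33, 8.68 and 8.48 at D10, and 8.92, 8.97 and 8.91 at D28. The groups D7, D8 and D10 did not overlap with each other. Of the 6 comparisons 5 passed on the adjusted p without reaching the fold threshold, the widest being D10 1.84-fold below D7 (log2 difference -0.88 ± 0.13 SE, limma, adjusted p = 5.25e-05). D28 and D8 were neighbours at a difference of 0.01 (95% interval -0.26 to 0.28, limma, adjusted p = 0.979).

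Barx2, which is known in chondrogenesis and muscle, was the least abundant of the 10 genes at D7, D8 and D10. Its log2 values were 4.29, 5.13 and 4.72 at D7 and 3.91, 4.67 and 5.15 at D8. At D10 they were 0.00, 2.50 and 2.44, which are 0, 3 and 3 reads. At D28 they were 6.21, 5.62 and 4.85. The D10 libraries lay apart below all others, while D7, D8 and D28 overlapped. With the D10 group raised to the floor of 3 reads per library, the estimated fall from D7 was 3.57-fold and that from D8 3.25-fold. The D28 level was then an estimated 6.44-fold higher than D10. These 3 differences are estimates at the floor and do not bound the sampling error. All 3 were called, with values raised to that floor giving limma adjusted p of 0.00586, 0.0141 and 0.00049. D28 and D7 did not pass (log2 difference 0.85, 95% interval -0.44 to 2.14, limma, adjusted p = 0.300), nor did D7 and D8 (limma, adjusted p = 0.912).

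Prg4, the lubricin gene of the articular surface and synovium, dominated the group and was among the most abundant transcripts of the early libraries. Its log2 values were 14.73, 15.11 and 15.11 at D7, 15.64, 15.87 and 15.75 at D8, and 16.04, 15.91 and 15.69 at D10. At D28 they were 12.90, 11.73 and 11.96. Every D8 and D10 library exceeded every D7 library, and every D28 library was far below. By level within the library Prg4 ranked 70th to 96th of all genes at D7, 30th to 40th at D10 and 399th to 1046th at D28. It fell 12.8-fold from D10 to D28 (log2 difference -3.68 ± 0.23 SE, limma, adjusted p = 4.28e-09) and was 6.90-fold below D7 at D28 (limma, adjusted p = 2.15e-07). The D8 level was 1.71-fold above D7 (limma, adjusted p = 0.0270) and D10 1.86-fold above D7 (limma, adjusted p = 0.00574), both under the fold threshold. D8 and D10 did not differ beyond their spread (limma, adjusted p = 0.740). The 3' ends of Prg4 and of Tpr, on opposite strands, share 204 exonic bases. Tpr stood at mean log2 values of 11.74 at D7, 12.49 at D10 and 11.81 at D28.

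Creb5, a factor known to act on Prg4 in superficial cells, was likewise lowest at D28, and is named here after its values were seen. Unlike that of Prg4, the D8 mean of Creb5 lay below its D7 mean. Its mean log2 values were 7.33, 7.21 and 7.80 over D7, D8 and D10, and 5.73 at D28. It fell by 2.07 on the log2 scale from D10 to D28 (limma, adjusted p = 6.44e-07). Creb5 belongs to a list of 15 superficial zone and synovial lining genes, described below. Over that interval 7 of the 15 fell and 4 rose, beside 13.7% and 13.8% of all genes. Foxo1 and Foxo3 of the same list, also named after their values were seen, were not called, at log2 differences of 0.21 and 0.92.

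**Figure D3:**
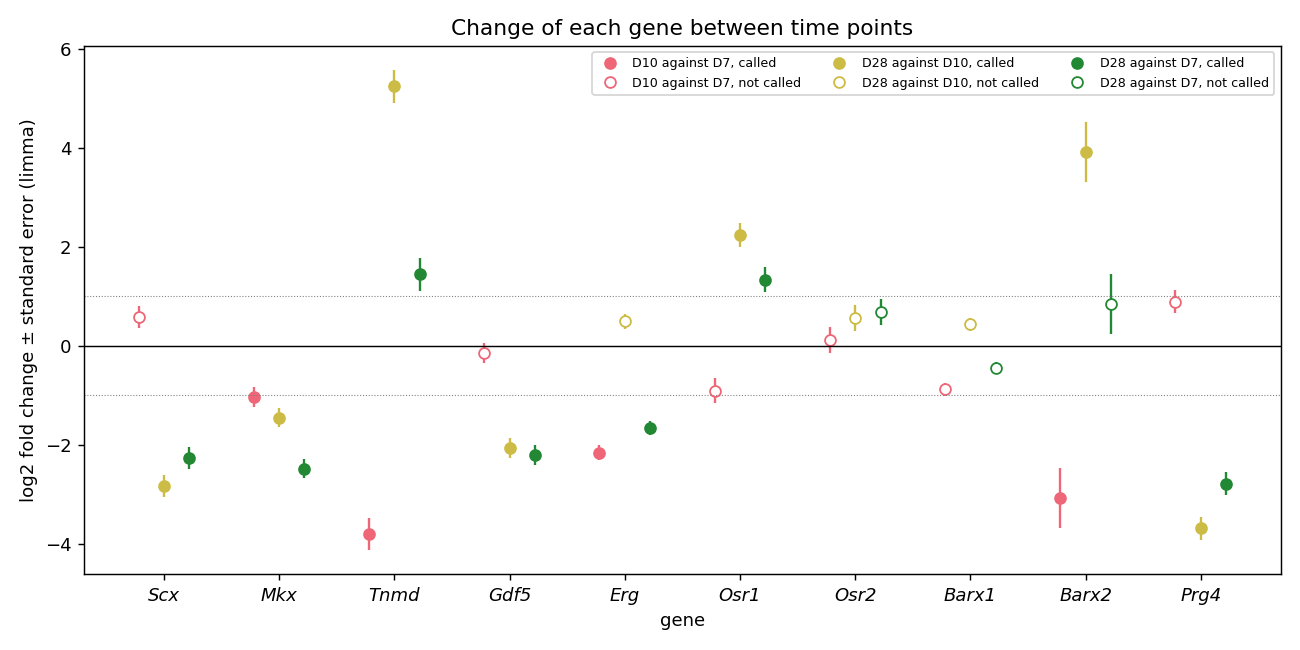
Log2 fold change of each gene with its limma standard error in D10 against D7, D28 against D10 and D28 against D7. Filled points are called (fold threshold of 1 on the log2 scale, dotted lines, and adjusted p under 0.05) and open points are not. Tnmd and Barx2 are lower at D10 and higher from D10 to D28, while Scx, Mkx, Gdf5 and Prg4 are lower from D10 to D28.

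Counted by comparison, the day after the change of medium called 1 of the 10 genes lower (Erg) and 0 higher, where 3.81% of all tested genes were called lower and 3.23% higher. Between D8 and D10, 2 were called lower, Tnmd and Barx2, and 0 higher, against 5.58% and 4.08% of all genes. Over D10 against D7, 4 were called lower (Mkx, Tnmd, Erg and Barx2) beside 10.4% of all genes, and 0 higher beside 8.50%. The median log2 fold change of the 10 genes in that comparison was -0.89 beside 0.05 over all genes.

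The late interval split the 10 genes. From D10 to D28, 3 were called higher (Tnmd, Osr1 and Barx2) beside 13.8% of all genes, and 4 lower (Scx, Mkx, Gdf5 and Prg4) beside 13.7%. In D28 against D7, 2 were called higher (Tnmd and Osr1) beside 8.63%, and 5 lower (Scx, Mkx, Gdf5, Erg and Prg4) beside 8.66%, with a median of -1.05 beside -0.03 over all genes. In D28 against D8, both in osteogenic medium, 3 were called higher (Tnmd, Osr1 and Osr2) beside 10.0%, and 4 lower (Scx, Mkx, Gdf5 and Prg4) beside 9.70%. Fixed lists of 10 genes give coarse shares, and no test of the list was made.

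Per kilobase of exon, levels can be set against each other between genes. At D7 the mean equalized count per kilobase was 7627 for Prg4, then 476 for Barx1, 370 for Erg, 310 for Gdf5 and 152 for Scx. Tnmd (121 ± 53, SD), Mkx (87.4), Osr1 (73.5 ± 20) and Osr2 (59.6 ± 18) followed, their ranges overlapping between neighbours and that of Tnmd also with Scx, and Barx2 came last at 13.2. At D10 Tnmd had moved to the ninth place with 7.70 per kilobase. At D28 the order was Prg4 at 1170, Barx1 at 348, Tnmd at 318, Osr1 at 184, Erg at 117 and Osr2 at 95.0. Gdf5 (67.3), Scx (31.4), Barx2 (25.3) and Mkx (15.7) closed it. Ranges over the 3 libraries overlapped between Barx1 and Tnmd, between Erg and Osr2, between Osr2 and Gdf5, between Scx and Barx2 and between Barx2 and Mkx. Prg4 made up 87.1% to 97.3% of the summed equalized counts of the 10 genes from D7 to D10, and 55.9% to 77.6% at D28.

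Further genes of the same tissues were taken from lists set out for this work. For the list counts below, 10.4% of all tested genes were called lower and 8.50% higher in D10 against D7. These shares were 13.7% and 13.8% in D28 against D10, and 8.66% and 8.63% in D28 against D7. Of 20 other tendon and ligament genes, 13 fell and 2 rose from D7 to D10, with a median log2 fold change of -1.62 beside 0.05 over all genes. The fallen genes were led by the fibril-associated collagens Col14a1 (-3.17 ± 0.34 SE) and Col12a1 (-2.75 ± 0.19) and by tenascin C, Tnc (-2.20 ± 0.22). Egr1, an immediate early factor that also acts in tendon, rose by 1.96 ± 0.19. Between D10 and D28, 8 of the 20 rose and 3 fell. In D28 against D7, 6 were lower, among them Col3a1 (-2.41 ± 0.29) and Col5a1 (-2.24 ± 0.17), and 1 higher, Mustn1 (3.13 ± 0.23), a small musculoskeletal nuclear protein gene. The other 13 did not pass.

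Of 20 other interzone genes, 8 fell and 2 rose in D10 against D7, with a median of -0.56. Among those with a mean log2 value of at least 5, the leading falls were in secreted antagonists, the BMP antagonist Nog at -3.64 ± 0.20 SE, the Wnt binding Sfrp2 at -3.31 ± 0.41 and Dkk3 at -2.69 ± 0.18. The hyaluronan receptor Cd44 rose by 1.20 ± 0.12. The other gene that rose was Dact2, under the level set for naming and named after its values were seen, with mean log2 values of 2.25 at D7 and 6.17 at D10. By D28 1 of the 20 was lower than at D7, the BMP antagonist Chrd (-1.24 ± 0.21), and 1 higher. That gene was Gdf6, a close relative of Gdf5 and named after its values were seen. It had mean log2 values of 3.63, 3.08 and 4.67 over D7, D8 and D10 and of 7.27 at D28, and rose by 3.64 ± 0.48 from D7 (limma, adjusted p = 2.39e-05). Gdf5 and Gdf6 thus moved in opposite directions over D28 against D7. Gdf7 had at most 5 reads in every library, with means of 1.59 to 1.83, and passed in 0 of these 2 comparisons. At that depth a change in Gdf7 could hardly be seen.

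Of 15 genes of the superficial zone and synovial lining, 7 fell and 1 rose in D10 against D7, and 6 fell and 2 rose in D28 against D7. The list medians were -0.90 and -0.53 beside 0.05 and -0.03 over all genes. Cilp, the cartilage intermediate layer protein, differed from D7 by -4.05 ± 0.25 SE at D10 and by -4.37 ± 0.25 at D28. Its relative Cilp2 fell by 5.45 ± 0.16 to D28, and the hyaluronan binding Tnfaip6 changed by -2.93 ± 0.19. The adhesion receptor Vcam1 rose by 2.15 ± 0.15 and Abi3bp by 1.40 ± 0.23 over D28 against D7, while Abi3bp had stood at -3.03 against D7 at D10. Has1, a hyaluronan synthase, rose by 2.25 ± 0.39 at D10.

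Of 16 growth plate cartilage genes, 11 fell and 0 rose from D7 to D10, with a median of -1.74. From D10 to D28, 9 rose and 2 fell. In D28 against D7, 3 were higher (Matn1, Cnmd and Snorc) and 3 lower. Cnmd encodes chondromodulin, the cartilage relative of tenomodulin, and went from a mean log2 value of 14.01 at D7 to 10.92 at D10 and 15.16 at D28. Tnmd minus Cnmd stayed between -7.46 ± 0.52 (SD, n = 3) at D10 and -6.45 ± 0.37 at D28. Ihh, the hedgehog ligand of prehypertrophic chondrocytes, had 0, 4 and 3 reads in the D10 libraries and mean log2 values of 7.73 at D7 and 7.88 at D28. Matn3 changed by -4.37 ± 0.20 SE over D10 against D7, and Col10a1, the hypertrophic collagen, was 2.99 ± 0.44 lower at D28 than at D7.

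**Figure D4:**
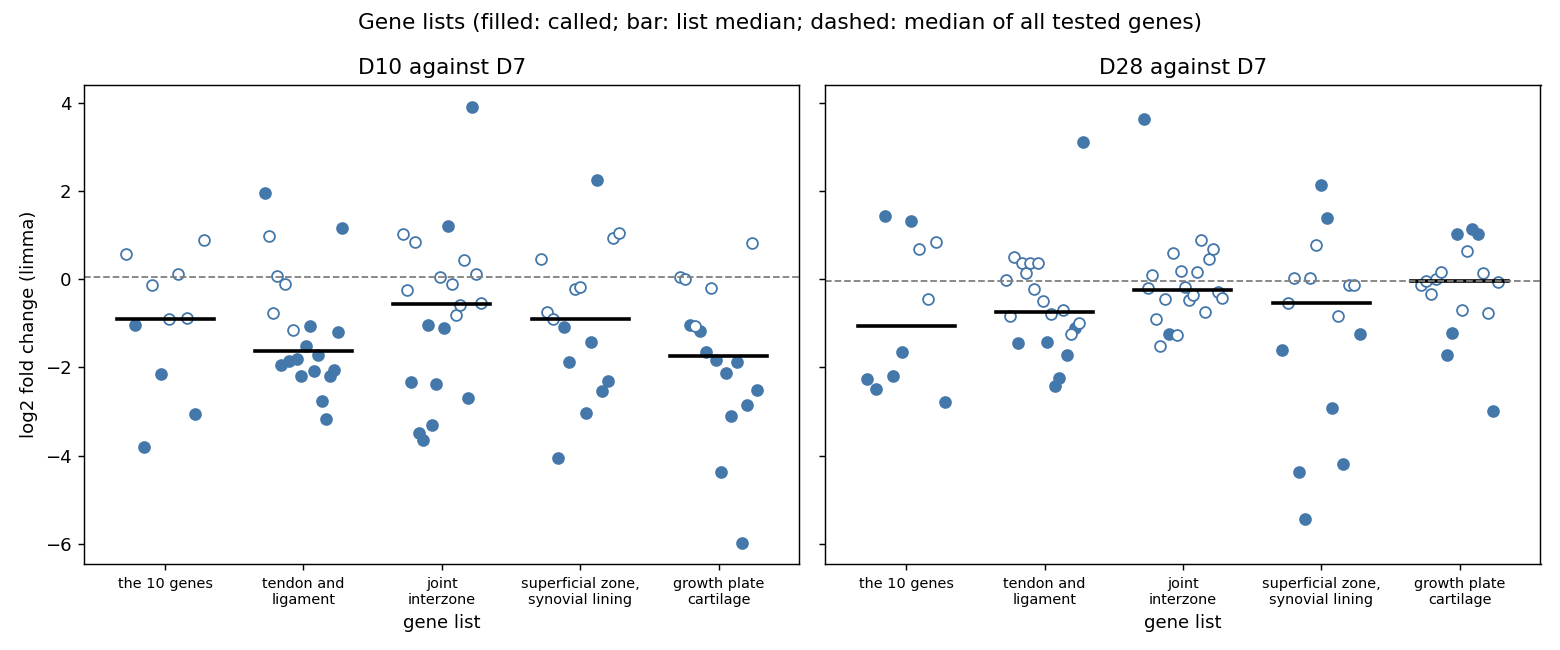
Log2 fold change of the 10 genes and of 4 further gene lists in D10 against D7 (left) and D28 against D7 (right). Each point is a gene, filled where called, the bar is the list median and the dashed line the median of all tested genes. The tendon and growth plate lists lie mostly below 0 at D10, with medians of -1.62 and -1.74, and nearer to it at D28, with medians of -0.74 and -0.04.

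Markers of other cell types also moved over the course. The summed equalized counts of 6 adipocyte genes were 3964 to 4711 at D7, 949 to 1416 at D10 and 30136 to 39463 at D28. All 6 rose from D7 to D28, with Adipoq up by 5.44 ± 0.29 SE and Cidec by 5.26 ± 0.40. In D10 against D7, 5 of the 6 fell. This list is lowest at D10 and highest at D28, as are Tnmd, Osr1 and Barx2, and its part in their values was not tested. The sum over 10 skeletal muscle genes was 3434 to 4202 at D7, 405 to 544 at D10 and 135 to 262 at D28. Of the 9 tested, 8 fell from D7 to D28, among them Acta1 (-6.23 ± 0.59), and Pax7 and Tnnc2 had at most 3 reads in every library. The muscle list declined alongside Mkx, and its part in that decline was not tested. Of 8 macrophage and leukocyte genes, 1 rose and 0 fell from D7 to D28, and 3 rose and 1 fell from D10 to D28. Their summed equalized counts were 1142, 4635 and 1285 in the D28 libraries and 1005 to 1636 in the other 9, so D28 replicate 2 stood apart. Its part in the values of the 10 genes was not tested beyond leaving it out. Without it the log2 difference of D28 against D10 was 5.01 for Tnmd and 2.10 for Osr1, both still called, and 7 of the 10 genes were called. In D28 against D8 its omission left 6 of 10 called, Osr2 being the one lost (0.99). Of 6 osteoblast genes, 3 rose and 3 fell from D7 to D10, and 5 rose and 0 fell from D10 to D28. From D7 to D28, 3 rose and 1 fell. Their summed equalized counts were 34874 to 77549 at D7, 2245 to 3882.5 at D10 and 19907 to 29243 at D28. This list is also lowest at D10, and its part in the values of the 10 genes was not tested. Of 8 tested relatives of the 10 genes, 3 rose and 1 fell over the same interval. The Iroquois homeobox genes Irx3 and Irx5, relatives of Mkx, rose by 1.74 ± 0.21 SE and 1.43 ± 0.22 from D7 to D10 and stood near their D7 means at D28 (7.48 and 6.31).

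Genes with the most similar course were sought for each of the 9 genes called at least once, among 12181 genes with a mean log2 value of at least 5. Likeness is Pearson's r over the 12 libraries, which fall into 4 time points, so r mostly compares time courses of 4 means and is given as a description. Scx was most like Prss46 (r = 0.986), Wnt5a (0.984) and Adcy7 (0.982). Wnt5a, a Wnt ligand of skeletal outgrowth, had means of 9.16 at D7, 9.76 at D10 and 8.01 at D28. Mkx was most like Shank1 (0.981), 4931406P16Rik (0.980) and Car12 (0.977), a carbonic anhydrase gene. Prg4 was most like Cntnap3 (0.987), Asns (0.986), the asparagine synthetase gene, and Cdc42se2 (0.985).

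Tnmd was most like Selenbp1 (r = 0.981), the keratin gene Krt7 (0.970) and Cnmd (0.969), each lowest at D10 and highest at D28. Gdf5 was most like Tll1 (0.976), a BMP1-like protease gene, Cdon (0.976) and Paqr3 (0.974). Erg was most like Nedd9 (0.981), the taurine transporter gene Slc6a6 (0.979) and Slc44a1 (0.976). Osr1 was most like the receptor gene Acvrl1 (0.980), Tcf7l1 (0.975) and complement C4b (0.968). Osr2 was most like Hvcn1 (0.971), followed by Arhgap24 at 0.944 and Wdfy2 at 0.934. Barx2 was most like the link protein gene Hapln1 (0.971), Mettl21a (0.965) and the superoxide dismutase gene Sod2 (0.963). Pearson's r does not reflect the size of a change. Means ran only from 8.86 to 9.35 for Mettl21a and from 10.04 to 10.47 for Sod2, and Barx2 had 0 to 3 reads at D10.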

How the data were processed

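RNA from pellets was sequenced as 12 stranded poly-A libraries. According to the study's methods, HISAT2 was the aligner, Cufflinks gave the annotation and HTSeq the counts per gene. The submitters' processing notes also list Trimmomatic 0.36. The reference genome is named there as human hg38, although the listed symbols are those of mouse genes. The strand setting of the counting is not given in the sources used here, so reads of a gene and an overlapping antisense partner may not be separated. The authors then equalized the counts between samples, and the deposited values are log2 of the equalized count plus 1. Low values formed steps, and the rank of a value within its library's set of distinct values was taken as its number of reads.

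The test took 17674 genes, those that reached a log2 value of 1 in 3 or more libraries. Another 2635 failed this filter and 7935 were at 0 throughout. The model had 1 coefficient per time point over all 12 libraries, fitted with limma 3.58.1 (R 4.3.3), a mean-variance trend and Benjamini-Hochberg adjustment. The study's methods use an unadjusted 2-group test with the same fold threshold, which was run as an alternative. The fit was tested on simulated data. The 10 genes, the lists and the tests were chosen with earlier results of these data known. The lists were tendon and ligament, joint interzone, superficial zone and synovial lining, growth plate cartilage, relatives of the 10 genes, endothelial cells, skeletal muscle cells, macrophages and leukocytes, adipocytes and osteoblasts. From each list at most 3 called genes per direction with the largest change in D10 against D7 and in D28 against D7 were named, given a mean log2 value of at least 5. Genes are positioned by GENCODE on GRCm38 and promoter windows come from RefSeq. Figures were drawn with matplotlib 3.10.9. Alternatives changed the filter, scaling, pseudocount, low values, threshold, variance trend and test, and left out each library in turn.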

Additional observations from a re-analysis of the deposited data

How the results depend on the processing

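Most results for the 10 genes held. Over all alternatives and omitted libraries, 1284 values kept direction and side of the threshold, 16 gained a call, 13 lost one and 7, all uncalled, changed sign. With a replicate block the genes called numbered 1, 2, 4, 7, 7 and 7 of 10 in D8 against D7, D10 against D8, D10 against D7, D28 against D10, D28 against D7 and D28 against D8, as without it. Whether replicate numbers pair these samples is not known. Deviations of same-numbered libraries correlated at -0.06 to 0.07 (18 pairs), and 10 of 36 best partners carried their own number. These values cannot exclude pairing, since a shared source with little effect on expression would give the same. At a log2 fold change of at least 2, 0 of the 10 genes were called in D8 against D7 and 4 each in D28 against D7 and against D8. Without a fold threshold 4 were called in D8 against D7, 4 in D10 against D8 and 8 in D10 against D7. Leaving out 1 library gave 1 to 2 calls in D8 against D7. The same omissions gave log2 differences of -0.42 to 0.20 for Barx2 in D8 against D7, -0.15 to 0.32 for Osr2 and -0.35 to 0.16 for Gdf5 in D10 against D7, and -0.061 to 0.066 for Barx1 in D28 against D8. All genes called higher and lower in D8 against D7 were 571 and 673, against 185 and 203 at a threshold of 2 and 2107 and 1607 with none. In D10 against D8 they were 721 and 987, against 167 and 365 and 2452 and 2644. In D10 against D7 they were 1502 and 1838, against 494 and 848 and 3855 and 3433. In D28 against D10 they were 2431 and 2423, against 1271 and 824 and 3997 and 5262. In D28 against D7 they were 1526 and 1531, against 712 and 644 and 3103 and 3489, and in D28 against D8 1773 and 1714, against 877 and 678 and 3084 and 4220. Median of ratios scaling moved the median of all genes by 0.11 in D28 against D10. Depth limits Barx2 and Tnmd at D10, where Barx2 had at most 3 reads and Tnmd 4 to 10 per library.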
